A study of Homo sapiens with 6 samples.

Results

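The transcripts described here belong to 10 genes of the Hippo pathway: the transcriptional co-activators YAP1 and WWTR1 (TAZ), their DNA-binding partners TEAD1, TEAD2, TEAD3 and TEAD4, the kinases LATS1 and STK3, the adaptor SAV1 and the membrane-linked regulator NF2. They were chosen by gene symbol, and all 10 were found among the 38900 Ensembl gene IDs of the deposited table. Gene expression was measured by RNA sequencing of polyA RNA in 6 libraries of hTERT RPE1, a cell line established from human retinal pigment epithelium and immortalised with telomerase. In both groups the cells had been held at 100% confluency for 5 days, a hold that the labels give as the way to quiescence, and were then changed into fresh medium for 6 hours. The CA4 group (3 libraries) received 100 nM combretastatin A4, a small molecule that binds tubulin and takes microtubules apart. The DMSO group (3 libraries) received 0.1% DMSO, the solvent. The labels number the libraries 1 to 3 in each group and do not say whether they came from separate cultures, so the p-values measure the spread between these libraries, which may be technical.

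In the Hippo pathway STK3 and its close relative STK4, held by the adaptor SAV1, activate the kinases LATS1 and LATS2 together with MOB1 proteins, and NF2 (merlin) brings LATS kinases to the membrane. Active LATS kinases phosphorylate YAP and TAZ, which are then kept in the cytoplasm or degraded, while unphosphorylated YAP and TAZ enter the nucleus and bind TEAD proteins on the DNA element GGAATG. High cell density and low tension on the actin cytoskeleton are known to switch the kinases on, and much of this control acts on proteins, which RNA levels do not show.

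The 6 libraries held between 19524936 and 22538004 reads. Of 14 retinal pigment epithelium markers, DCT and TTR were at 0 in every library and 6 stayed under 10 normalized counts throughout, while of 7 epithelial and mesenchymal markers the keratin KRT8 lay between 14118 and 16502, EPCAM stayed under 10, and the mesenchymal VIM was above KRT8 in every library. All 5 tested markers of that list were fitted higher in CA4 (median log2 fold change 0.24), and 1 passed, CDH2 (0.31; adjusted p = 0.0452 by limma, 0.0461 to 0.153 without 1 library, with the call lost in 5 of 6 such fits and with edgeR). The pigment epithelium markers' summed level ran from 1312 to 2037 normalized counts in DMSO and from 825 to 1222 in CA4, and OTX2, a transcription factor of this tissue, fell by 1.11 on the log2 scale (standard error 0.16; adjusted p = 0.0158 by limma, and 0.00669 to 0.0792 without 1 library, with the call lost in 4 of 6 such fits). Of the 8 tested pigment epithelium markers 4 were fitted higher and 4 lower, with a median log2 fold change of 0.0086, and MITF, the other abundant one with a lower level, was at -0.98 without passing the threshold. Markers of other cell types (7 genes) summed to 1929 to 2315 in DMSO and 2091 to 4245 in CA4, with CA4 replicate 3 the highest and S100B under 10 throughout. Proliferation markers (7 genes, none at 0) summed to 6155 to 12503 in DMSO and 3691 to 9735 in CA4, and replicate 1 was the highest library of each group; all 7 were fitted lower in CA4 (median log2 fold change -0.37) and 0 passed the threshold in limma or edgeR, 1 at an unadjusted p under 0.05 in each and 1 with DESeq2. The part of these markers in the results below was not tested, and in bulk RNA fewer cells of a kind and less RNA per cell cannot be told apart.

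Of the 10 Hippo transcripts, WWTR1 fell and TEAD3 rose with CA4, and the other 8 did not pass the threshold, an adjusted p of 0.05 in limma's test on log2(normalized count + 1) over all 13928 genes tested. That is 20% of the members, against 4.94% of all tested genes that passed (2.97% higher and 1.97% lower in CA4). The members were chosen with earlier results of these data known, so these shares are a description. Of all called genes 60.0% were higher in CA4, and 34.8% when every library was scaled to the same total, which shifted the median over all genes by -0.10 (log2). The groups did not overlap in 5 of the 10 members (TEAD1, TEAD3 and TEAD4 higher, WWTR1 and TEAD2 lower in CA4), against 27.7% of all tested genes (14.3% higher and 13.4% lower). The median log2 fold change of the members was 0.010, beside -0.0082 over all tested genes. The kinases, the adaptor, NF2 and YAP1 all had overlapping groups. WWTR1 and TEAD3 passed narrowly, and each lost its call in every fit that left out 1 of the 6 libraries.

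**Figure D1:**
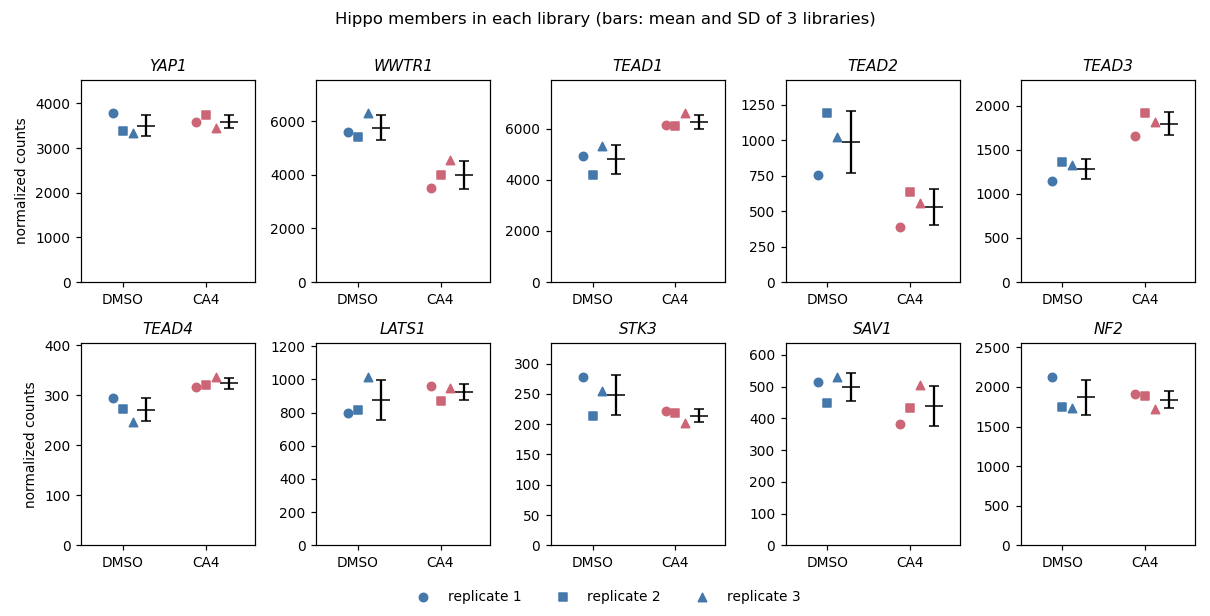
Normalized counts (y axis, from 0) of each of the 10 Hippo transcripts in the 3 DMSO and 3 CA4 libraries (x axis); symbols mark the replicate numbers and black bars the mean and SD of 3 libraries. The groups stand apart in WWTR1 and in the TEAD panels, as in TEAD3 with 1148 to 1364 in DMSO and 1653 to 1910 in CA4, and overlap in YAP1, LATS1, STK3, SAV1 and NF2.

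YAP1 and WWTR1 encode paralogous co-activators that carry no DNA-binding domain of their own. YAP1 (ENSG00000137693, GRCh38 chromosome 11, 102110461 to 102233423, plus strand) had, in order of replicate number as throughout, 3775, 3378 and 3346 normalized counts in the DMSO libraries and 3577, 3742 and 3455 in CA4. The groups overlapped, and the log2 fold change was 0.04 with a 95% confidence interval from -0.15 to 0.23 (adjusted p by limma 0.822). WWTR1 (ENSG00000018408, GRCh38 chromosome 3, 149517235 to 149736714, minus strand) had 5579, 5413 and 6281 in DMSO and 3497, 3981 and 4531 in CA4. Every CA4 library lay below every DMSO library, and replicate 3 was the highest of each group. WWTR1 had a mean of 5758 ± 461 in DMSO and 4003 ± 517 in CA4 (n = 3 each, SD) and fell by 0.53 on the log2 scale (standard error 0.11; adjusted p = 0.0428 by limma), so that the CA4 mean was 69.5% of the DMSO mean. With edgeR's quasi-likelihood test on the recovered reads its adjusted p was 0.0506, just past the threshold on the other side.

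The log2 ratio of YAP1 to WWTR1 barely changes when each library is scaled by 1 factor. It was -0.56, -0.68 and -0.91 in the DMSO libraries and 0.03, -0.09 and -0.39 in CA4. YAP1 therefore lay below WWTR1 in all 3 DMSO libraries and close to it in CA4 replicates 1 and 2, in reads not corrected for length. The groups did not overlap, and the mean ratio went from -0.72 ± 0.18 to -0.15 ± 0.22 (SD, n = 3 each), a difference of 0.57 (two-sided exact permutation p = 0.1, as low as groups of 3 and 3 can reach, and 0.15 after adjustment over the 3 family measures tested this way). Without any 1 library the difference stayed between 0.47 and 0.69.

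Promoter sequence is shown for the co-activators because YAP1 is the only member, of the 7 with an entry in the RefSeq promoter table (GRCh38.p14), whose 250 bases before an annotated start hold the TEAD element. The element was searched as GGAATG on both strands. Of 35116 promoters in that table, 11.9% hold it in the same window, and of its 27305 genes 14.3% hold it before at least 1 start, so that 1 of 7 members is near the background. Capitals mark the element, and the stretches stop before the nearest exon of a protein-coding gene.
YAP1, chr11:102110197-102110446, plus strand: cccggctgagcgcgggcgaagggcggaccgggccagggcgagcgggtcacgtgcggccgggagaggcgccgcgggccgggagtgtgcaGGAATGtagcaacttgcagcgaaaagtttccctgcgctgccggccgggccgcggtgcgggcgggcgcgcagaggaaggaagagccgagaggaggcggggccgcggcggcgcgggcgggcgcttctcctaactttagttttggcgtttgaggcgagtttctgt
WWTR1, chr3:149658102-149658275, minus strand: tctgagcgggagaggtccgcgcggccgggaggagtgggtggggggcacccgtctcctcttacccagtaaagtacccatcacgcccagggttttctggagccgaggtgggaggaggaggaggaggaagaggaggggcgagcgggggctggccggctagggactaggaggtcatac
The YAP1 element starts 162 bases before the start and lies in the plus-strand orientation. The WWTR1 stretch of 174 bases is 67.2% G or C, and the YAP1 stretch of 250 bases 72.0%. A second WWTR1 start in the table (32.8% G or C in its stretch of 195 bases) also lacked GGAATG. The AP-1 element TGACTCA, searched on both strands, was in no member's window and in 4.2% of all promoters. A match of letters is a description of the sequence and does not show that a factor binds there.

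TEAD proteins are the DNA-binding partners of YAP and TAZ, and the 4 paralogs bind the same element. Their transcripts did not share a direction: TEAD1, TEAD3 and TEAD4 were higher in every CA4 library than in any DMSO library and TEAD2 was lower in every one. TEAD3 (ENSG00000007866, GRCh38 chromosome 6, 35473597 to 35497076, minus strand) had 1148, 1364 and 1321 normalized counts in the DMSO libraries and 1653, 1910 and 1816 in CA4. Its mean was 1278 ± 114 in DMSO and 1793 ± 130 in CA4 (n = 3 each, SD), and it rose by 0.49 on the log2 scale (standard error 0.10; adjusted p = 0.0404 by limma). Its adjusted p was 0.0626 with quantile normalization, 0.0518 with the same 75th percentile and 0.065 with the same total in every library, so the call was lost under each of these 3 scalings. The fold change stayed positive under them, at 0.39 to 0.46.

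TEAD1 (ENSG00000187079, GRCh38 chromosome 11, 12674591 to 12944483, plus strand), the TEAD transcript with the most reads, had 4944, 4190 and 5313 in DMSO and 6139, 6108 and 6605 in CA4. DMSO replicate 2 was the lowest library. The log2 fold change was 0.39 with a 95% confidence interval from 0.15 to 0.63, and the limma adjusted p of 0.0711 missed the threshold. TEAD4 (ENSG00000197905, GRCh38 chromosome 12, 2959330 to 3040673, plus strand) had 294, 272 and 247 in DMSO and 316, 320 and 337 in CA4. Its groups were close without overlapping, and its log2 fold change was 0.26 (95% confidence interval -0.02 to 0.55, adjusted p by limma 0.256).

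TEAD2 (ENSG00000074219, GRCh38 chromosome 19, 49340595 to 49362457, minus strand) had 754, 1187 and 1023 normalized counts in DMSO and 389, 636 and 556 in CA4. The CA4 mean was 53.3% of the DMSO mean, the widest change on the log2 scale among the 10 members. Relative to the mean, the libraries within a group also differed most. Its log2 fold change was -0.91 (standard error 0.22, 95% confidence interval -1.43 to -0.39), with a limma adjusted p of 0.0615 that missed the threshold. Replicate 1 was the lowest library of each group, and without DMSO replicate 1 the adjusted p was 0.0345. With every library scaled to the same total it was 0.0434. In GENCODE release 29, 10.7% of the exon bases of TEAD2 also lie in CD37 on the opposite strand, and use of strand is not given in the sources used here. CD37 itself had 100, 93.5 and 92.1 normalized counts in DMSO and 9.66, 44.9 and 23.4 in CA4. The sum of TEAD2 and CD37 had a mean of 1083 in DMSO and 553 in CA4 (log2 ratio -0.97), and the part of reads from CD37 in the TEAD2 values was not tested.

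**Figure D2:**
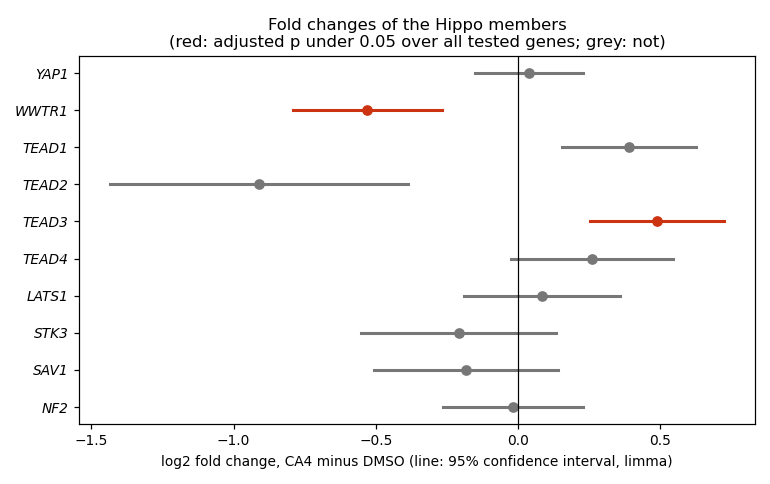
Log2 fold change of CA4 minus DMSO (x axis) for each of the 10 Hippo transcripts (y axis), with limma's 95% confidence interval as a line; red marks an adjusted p under 0.05 over all tested genes. WWTR1 at -0.53 and TEAD3 at 0.49 are the red points, TEAD2 at -0.91 has the widest interval, and the intervals of YAP1, TEAD4, LATS1, STK3, SAV1 and NF2 include 0.

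Upstream sequence of TEAD2 and TEAD3 is printed because these paralogs were the ones whose levels lay farthest apart in direction; neither stretch holds GGAATG or TGACTCA on either strand.
TEAD2, chr19:49362458-49362666, minus strand: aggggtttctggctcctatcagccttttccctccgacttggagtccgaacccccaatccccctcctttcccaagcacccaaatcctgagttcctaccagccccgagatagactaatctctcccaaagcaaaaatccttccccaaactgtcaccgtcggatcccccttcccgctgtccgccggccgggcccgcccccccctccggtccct
TEAD3, chr6:35497080-35497329, minus strand: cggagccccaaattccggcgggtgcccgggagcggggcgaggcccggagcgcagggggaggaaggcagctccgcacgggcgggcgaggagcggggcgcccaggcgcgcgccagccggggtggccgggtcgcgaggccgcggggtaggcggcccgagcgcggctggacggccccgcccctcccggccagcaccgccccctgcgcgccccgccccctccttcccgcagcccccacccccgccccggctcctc
The TEAD2 stretch of 209 bases is 61.2% G or C and the TEAD3 stretch of 250 bases 84.0%. A second TEAD2 start in the table also lacked both elements.

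Summed over the 4 paralogs, the TEAD transcripts had 7140, 7014 and 7903 normalized counts in the DMSO libraries and 8496, 8974 and 9313 in CA4. The groups did not overlap, and the mean went from 7352 ± 481 to 8928 ± 410 (SD, n = 3 each). On the log2 scale the difference was 0.28 (two-sided exact permutation p = 0.1, the smallest possible, adjusted to 0.15), and with every library scaled to the same total it was 0.18. TEAD1 held 69.2%, 59.7% and 67.2% of the TEAD reads in DMSO and 72.3%, 68.1% and 70.9% in CA4, groups that overlapped (two-sided exact permutation p = 0.2, adjusted 0.2). DMSO replicate 2 set much of this difference, which was 5.01 percentage points with it and 2.18 without it. The log2 ratio of TEAD2 to TEAD3, singled out after its values were seen and so given with no test, was -0.61, -0.20 and -0.37 in DMSO and -2.09, -1.58 and -1.71 in CA4.

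Dividing by the length of the union of GENCODE 29 exons gives levels that can be set between genes, in normalized counts per kilobase. Of the summed TEAD level per kilobase, TEAD1 made up 35.1% ± 4.8 in DMSO and 40.3% ± 2.37 in CA4, and TEAD3 31.3% ± 1.15 and 38.7% ± 0.976 (SD, n = 3 each). TEAD2 made up 24.6% ± 4.3 in DMSO and 11.6% ± 2.17 in CA4, and TEAD4 8.96% ± 1.35 and 9.41% ± 0.468 (SD, n = 3 each). The TEAD2 and TEAD3 shares did not overlap between groups, while those of TEAD1 and TEAD4 did. The TEAD family thus held proportionally less TEAD2 in each CA4 library, and more TEAD3. With the longest coding transcript as the length, an alternative chosen after seeing the data, the TEAD2 shares were 25.8% ± 4.56 and 12.3% ± 2.31 and those of TEAD3 27.4% ± 1.07 and 34.3% ± 0.931 (SD, n = 3 each).

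**Figure D3:**
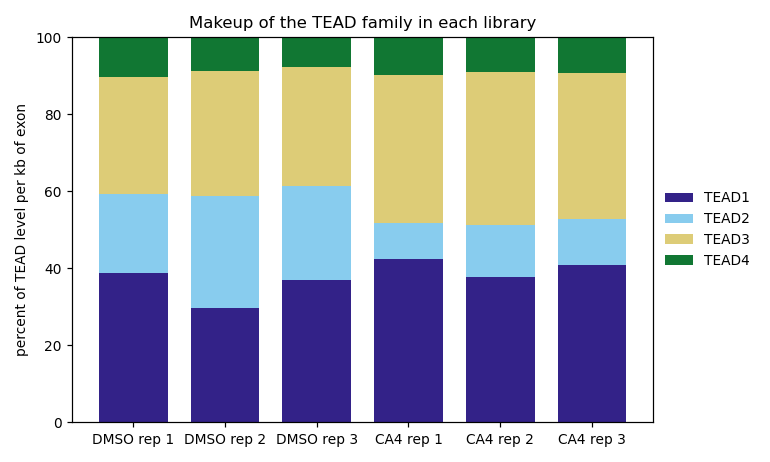
Percent of the summed TEAD level per kilobase of exon (y axis, 0 to 100) that each of the 4 paralogs holds in each library (x axis), as stacked bars. The TEAD2 band takes 20.4% to 29% in the DMSO libraries and 9.25% to 13.6% in the CA4 libraries, and the TEAD3 band 30.4% to 32.6% and 37.9% to 39.8%.

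On the same per-kilobase scale the order of mean levels in DMSO was WWTR1 (684 ± 54.8), YAP1 (556 ± 38.0), TEAD1 (468 ± 55.7), TEAD3 (419 ± 37.5), TEAD2 (332 ± 73.4), NF2 (261 ± 31.3), TEAD4 (119 ± 10.3), LATS1 (102 ± 13.8), SAV1 (88.4 ± 7.79) and STK3 (19.7 ± 2.61; SD, n = 3 each). The library values of neighbours overlapped from TEAD1 through NF2 and again from TEAD4 through SAV1. In CA4 the order began with TEAD1 (611 ± 27.1), TEAD3 (589 ± 42.7) and YAP1 (570 ± 22.9), whose libraries overlapped, and WWTR1 came after them (476 ± 61.5; SD, n = 3 each). TEAD2 lay at 177 ± 42.4 in CA4, where it overlapped TEAD4 at 143 ± 4.82 (SD, n = 3 each). NF2 (256 ± 14.7) lay between WWTR1 and TEAD2 and apart from both, and LATS1 (107 ± 5.57), SAV1 (78.1 ± 11.2) and STK3 (17.0 ± 0.856) followed TEAD4 with no overlap between neighbours (SD, n = 3 each). The place of WWTR1 in CA4 depended on the length used, since with the longest coding transcript it had the highest mean of the 10 in both groups and overlapped TEAD1 in CA4. Other places moved as well. With that length TEAD3 went from place 2 to 4 in CA4 and SAV1 from place 9 to 7 in DMSO. STK3 was the lowest of the 10 by either length, in both groups, but its DMSO mean was 80.0 with the longest coding transcript.

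The kinase arm had no member past the threshold. LATS1 (ENSG00000131023, GRCh38 chromosome 6, 149658153 to 149718256, minus strand), which phosphorylates YAP and TAZ, had 800, 817 and 1015 normalized counts in DMSO and 958, 871 and 950 in CA4. Its highest library was DMSO replicate 3, and its log2 fold change was 0.09 (95% confidence interval -0.19 to 0.36, adjusted p by limma 0.716). STK3 (ENSG00000104375, GRCh38 chromosome 8, 98371228 to 98942827, minus strand), the upstream kinase also called MST2, had 278, 213 and 254 in DMSO and 222, 218 and 202 in CA4, with a log2 fold change of -0.21 (95% confidence interval -0.55 to 0.13, adjusted p by limma 0.446). DMSO replicate 2 lay among the CA4 libraries. SAV1 (ENSG00000151748, GRCh38 chromosome 14, 50632058 to 50668331, minus strand) had 514, 448 and 531 in DMSO and 381, 433 and 506 in CA4, with a log2 fold change of -0.18 (95% confidence interval -0.51 to 0.14, adjusted p by limma 0.481). Of the exon bases of SAV1 in GENCODE 29, 14.9% lie in ATL1 on the opposite strand, which had means of 12.3 and 4.76 normalized counts in DMSO and CA4. NF2 (ENSG00000186575, GRCh38 chromosome 22, 29603556 to 29698598, plus strand) had 2128, 1745 and 1733 in DMSO and 1909, 1888 and 1716 in CA4, with a log2 fold change of -0.02 (95% confidence interval -0.27 to 0.23, adjusted p by limma 0.94). A p above the threshold does not show that these levels were alike, and the intervals give the sizes of change that remain possible.

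The fewest reads of any member in any library were 181, for STK3, and the fewest for TEAD4 were 260. Relative counting noise is largest in such low members, and its part in their spread was not tested. Reads could be exchanged only in small part with near-identical genes, as 0% of the 50-base words of TEAD1 and TEAD2 occur in another gene of GENCODE 29, 0.227% of those of TEAD3 occur in TEAD4, and the share was highest for SAV1, at 4.51%, in AC093890.1. Genes on the opposite strand share 9.97% of the exon bases of YAP1 (AP000942.2), 9.45% of those of WWTR1 (WWTR1-AS1) and 4.72% of those of LATS1 (AL358852.1), and reads there cannot be assigned without knowing whether strand was used.

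The other genes of the pathway were taken from 9 lists written from general knowledge, with earlier results of these data known. Their counts are therefore descriptions set beside the share over all genes. The 8 lists other than the targets of YAP and TAZ held 108 genes, of which 101 were tested. Of these, 6 rose and 3 fell, 8.91% in all against 4.94% of all tested genes, and the median log2 fold change was 0.02. Without AMOTL2, LATS2, NUAK2 and PTPN14, which the target list also holds, 5 of 97 tested genes rose and 3 fell (8.25%). Of the 9 calls, 3 lay with upstream scaffolds and receptors, 3 with cofactors and competitors of TEAD, and 0 with the core kinases. None of the 9 calls held in all 6 fits without 1 library. FAT4, NCOA1, WWC3 and CSNK1E kept theirs in 1 of these fits, NUAK2 and RUNX2 in 2, MYL12A in 3, and WWC1 and VGLL3 in 4.

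In the core cassette outside the members, 0 of the 4 tested genes passed in limma, edgeR or DESeq2, and 1 had an unadjusted p under 0.05 in each. That gene, LATS2, the LATS1 paralog and itself a YAP target, was at 0.27 on the log2 scale (standard error 0.11; adjusted p = 0.187 by limma), with groups that did not overlap (948, 862 and 1065 normalized counts in DMSO, 1228, 1144 and 1088 in CA4). STK4, MOB1A and MOB1B had log2 fold changes of -0.01, 0.02 and -0.18. Among 17 tested upstream kinases, 1 rose and 0 fell. That gene, NUAK2, a kinase of the AMPK family that is also counted among YAP targets, had means of 102 ± 19.5 in DMSO and 223 ± 25.9 in CA4 (n = 3 each, SD) and rose by 1.13 on the log2 scale (standard error 0.19; adjusted p = 0.0227 by limma). TNIK, PRKAA2 and MAP4K4 were not past the threshold, at -0.70, -0.36 and -0.23.

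Upstream scaffolds and receptors had 3 of 18 tested genes past the threshold, with 2 higher and 1 lower. WWC1 (KIBRA), a scaffold that works with NF2 to activate LATS kinases, had 487, 309 and 291 normalized counts in DMSO and 1306, 990 and 972 in CA4. Every CA4 library lay above every DMSO library, and WWC1 rose by 1.61 on the log2 scale (standard error 0.22; adjusted p = 0.0126 by limma), the highest value of the 8 lists. Its paralog WWC3 rose less, from 1411 ± 73.7 to 1838 ± 38.8 (SD, n = 3 each; log2 fold change 0.38; adjusted p = 0.0408 by limma), a call lost with quantile normalization (0.0664), the same 75th percentile (0.051), the same total (0.0913) and no filter (0.0534), and the paralog WWC2 had a log2 fold change of 0.06. FAT4, a giant cadherin of the pathway's receptor arm, had 1136, 1528 and 1912 in DMSO and 738, 836 and 867 in CA4, and fell by 0.88 on the log2 scale (standard error 0.18; adjusted p = 0.0412 by limma). DLG5, a scaffold of cell polarity, had a log2 fold change of -0.27 and missed the threshold.

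Among cofactors and competitors of TEAD, 1 of 10 tested genes rose and 2 fell. VGLL3, which binds TEADs through the same surface as YAP and TAZ, had 1788, 1417 and 1196 normalized counts in DMSO and 3711, 3236 and 2893 in CA4. Its groups were far apart, and it rose by 1.17 on the log2 scale (standard error 0.16; adjusted p = 0.0131 by limma). VGLL1 and VGLL2 were at 0 in every library, which allows up to 3 reads in each. RUNX2, a transcription factor that binds YAP and TAZ, had means of 868 ± 150 in DMSO and 326 ± 132 in CA4 (n = 3 each, SD) and fell by 1.47 on the log2 scale (standard error 0.27; adjusted p = 0.0291 by limma), the lowest of the 8 lists. NCOA1, a nuclear receptor co-activator, fell from 793 ± 45.2 to 553 ± 21.8 (SD, n = 3 each; log2 fold change -0.52; adjusted p = 0.0289 by limma).

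In the remaining lists few genes passed. Of 8 tested genes of YAP and TAZ turnover, 1 rose, CSNK1E, a casein kinase that primes YAP and TAZ for degradation (log2 fold change 0.41; adjusted p = 0.0487 by limma), and FBXW11, SKP1 and USP9X were at 0.10, -0.14 and -0.05. The CSNK1E call was lost with edgeR (0.0506), quantile normalization (0.0834), the same 75th percentile (0.0599), the same total (0.0981), no filter (0.0615) and a pseudocount of 0.1 (0.0502). Of 12 tested genes that link microtubules to RhoA, 1 rose, the myosin light chain MYL12A (7562 ± 83.0 to 11489 ± 1059, SD, n = 3 each; log2 fold change 0.60; adjusted p = 0.0156 by limma). ARHGEF2, the RhoA exchange factor held inactive on microtubules, was at 0.28, MYL12B at 0.29 and LIMK2 at -0.85, none past the threshold. The 19 tested inhibitors of LATS and STK3/4 and the 13 tested genes of YAP and TAZ binding and retention had 0 genes past the threshold in limma or edgeR. In limma 3 of the former and 2 of the latter had an unadjusted p under 0.05, and DESeq2 called 3 and 1, beside 11.6% of all genes. Leading genes were SIKE1 (0.39), PPP2CB (0.33), WTIP (0.56) and STRN3 (0.26) in the former, and AMOTL2 (0.38), YWHAQ (-0.26) and YWHAG (0.13) in the latter, all as log2 fold changes.

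**Figure D4:**
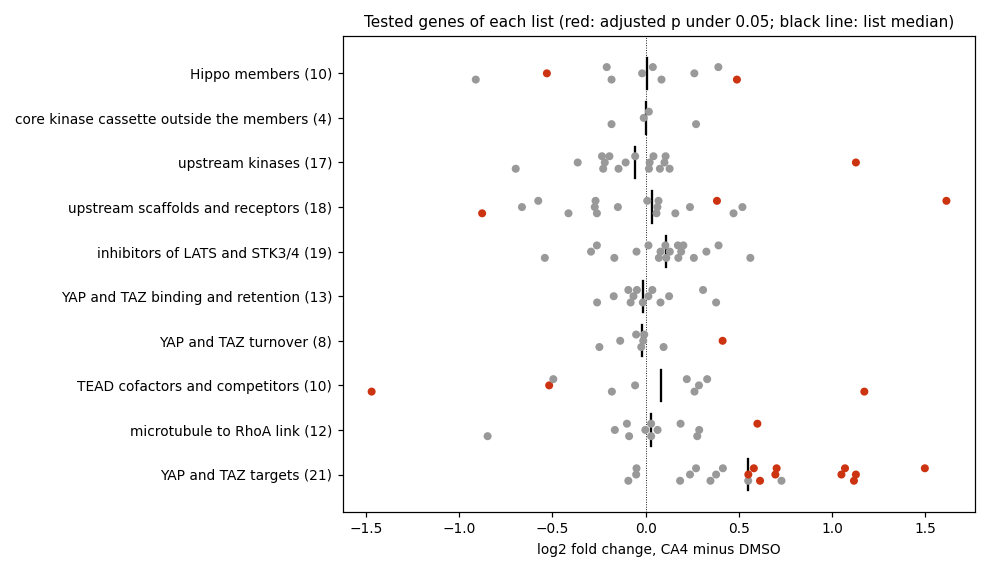
Log2 fold change of CA4 minus DMSO (x axis) for the tested genes of the 10 Hippo members and of the 9 other lists (y axis, number tested in brackets); each point is a gene, red marks an adjusted p under 0.05 and a black line the list's median. The medians of the members and the 8 pathway lists lie between -0.06 and 0.11, and that of the YAP and TAZ targets at 0.55.

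The target list of YAP and TAZ, also chosen with earlier results known, had 10 of 21 tested genes higher past the threshold. That is 47.6%, against 2.97% of all tested genes that were higher. In limma, edgeR and DESeq2 0 were lower, also at an unadjusted p under 0.05. With edgeR 10 were higher, with DESeq2 12 (it called 11.6% of all genes), and with limma without the variance trend 2. The activity of YAP and TAZ was not measured, and its part in these values was not tested. Targets that rose include ANKRD1, GADD45A, CRIM1 and F3, by 1.05, 1.12, 0.70 and 1.5 on the log2 scale (adjusted p by limma 0.00404, 0.0057, 0.0108 and 0.0122). Among the members beside these 10 called targets, TEAD3 rose, WWTR1 fell and YAP1 had overlapping groups. The TEAD element was found before an annotated start in 8 of the 16 target genes with a promoter entry, counting a gene with several starts once. The share over all genes in the table, counted the same way, was 14.3%. The list was made of genes known as targets, so a higher share follows from that choice and says nothing about CA4. Past the threshold, ANKRD1 and NUAK2 hold the element and F3 does not, while AMOTL2 and PTPN14 hold it without passing. CCN2, a matrix protein gene long used as a YAP readout, is shown as an example because it holds 3 copies.
CCN2, chr6:131951374-131951622, minus strand: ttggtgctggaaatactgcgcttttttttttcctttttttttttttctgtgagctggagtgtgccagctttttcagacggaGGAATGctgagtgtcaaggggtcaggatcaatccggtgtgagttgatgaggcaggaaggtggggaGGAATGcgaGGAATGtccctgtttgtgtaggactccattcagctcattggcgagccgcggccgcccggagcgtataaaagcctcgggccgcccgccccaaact
In CCN2 the copies start 169, 104 and 95 bases before the start, all in the same orientation. CCN2 had 23467, 25763 and 41608 normalized counts in DMSO and 41178, 50852 and 54647 in CA4; DMSO replicate 3 overlapped the CA4 libraries, and the log2 fold change was 0.73 (standard error 0.22; adjusted p = 0.0991 by limma).

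The genes with the pattern most like each called member were found by the root mean square difference of log2 values, each centred on its gene's mean, over the 6 libraries, among 11688 other genes whose mean reached 50 normalized counts. For WWTR1 they were PNMA1, TUBG2 and PRTFDC1, with differences of 0.0569, 0.062 and 0.0733. PNMA1 had 2870, 2952 and 3128 normalized counts in DMSO and 1926, 2172 and 2307 in CA4, and like WWTR1 its replicate 3 was the highest of each group. For TEAD3 they were SRC, MYO1E and SYNGR2, with differences of 0.0344, 0.0456 and 0.0634. SRC, a tyrosine kinase gene, had 1498, 1672 and 1687 normalized counts in DMSO and 2152, 2464 and 2396 in CA4, a log2 fold change of 0.53 beside 0.49 for TEAD3. These likenesses are descriptions over 6 libraries that share the treatment.

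**Figure D5:**
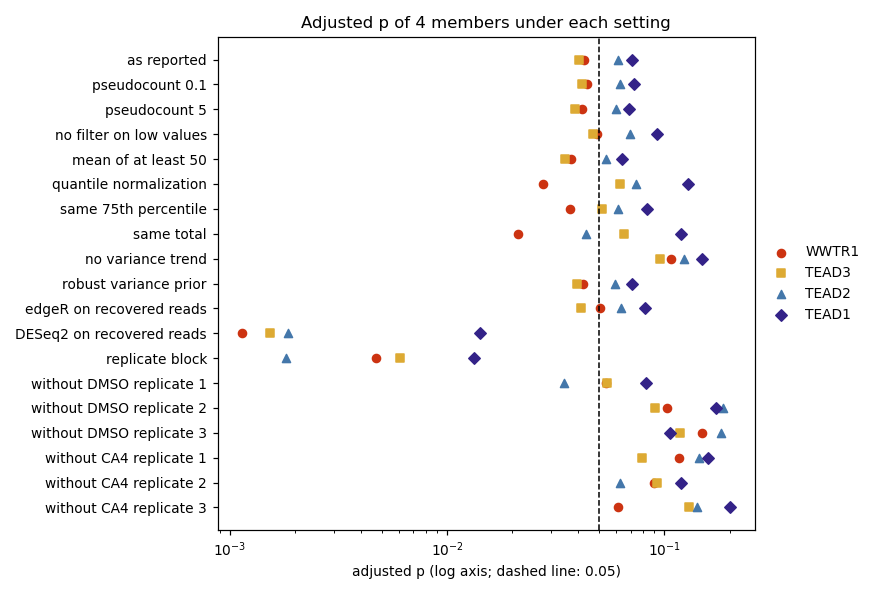
Adjusted p (x axis, log scale; dashed line at 0.05) of WWTR1, TEAD3, TEAD2 and TEAD1 under each setting (y axis). WWTR1 and TEAD3 lie left of the line as reported, at 0.0428 and 0.0404, and right of it in each fit without 1 library, where WWTR1 ran from 0.054 to 0.15 and TEAD3 from 0.0544 to 0.13.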

How the data were processed

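RNA of 6 hTERT RPE1 libraries (3 CA4, 3 DMSO, grouped and numbered by their titles) was sequenced after polyA selection, per the labels' protocols. The deposited values are a signal, which the values show to be gene counts divided by 1 scaling factor per library, made by the authors and called normalized counts here. Per the submitters' processing notes, Trim Galore 0.6.6, FastQC 0.12.1, Salmon 1.8.0, STAR 2.7.9a, DESeq2 1.44.0 and build GRCh38 were used; their roles, the annotation and strand use are not given in the sources used here. All values (100%) were whole multiples of the value of 1 read within 0.01, which recovered 19524936 to 22538004 reads per library; 1 normalized count is close to 1 read, and limits cover counting error only. Genes with a mean of at least 10 were tested (13928) on log2(normalized count + 1) with limma 3.58.1 in R 4.3.3 (mean trend, treatment as the only term, two-sided, Benjamini-Hochberg over all tested genes), a scale that understates changes of low genes. Count models were edgeR 4.0.16 (643 genes called) and DESeq2 1.42.0 on recovered reads. Alternatives were pseudocounts of 0.1 and 5, no filter, a mean of at least 50, 3 scalings, no variance trend, a robust prior, the replicate number as a block and each library left out. In data simulated from these 13928 genes with 200 changed 2-fold, limma recovered 52.5% with 6.25% false calls. Symbols came from the supplied gene table or GENCODE 29; lengths and positions from GENCODE 29, promoters from RefSeq. Named are all members, up to 4 genes per list with the smallest adjusted p, and the 3 genes most like each called member; CCN2, PTPN14, OTX2, MITF, KRT8, VIM, EPCAM, CDH2, WWC2, CD37 and ATL1 are named outside this rule, after their values were seen, and some genes under it are not reported here. Members and lists were chosen with earlier results of these data known.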

Additional observations from a re-analysis of the deposited data

How the results depend on the processing

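The fold change of WWTR1 ran from -0.64 to -0.44 and that of TEAD3 from 0.39 to 0.55 (log2) over the pseudocounts, scalings, count models and fits without 1 library; filters, variance settings and the block cannot move it. The number of members past the threshold was 2 and became 1 with quantile normalization (WWTR1), 1 with the same 75th percentile (WWTR1), 1 with edgeR (TEAD3), 0 with limma without the variance trend (5 at an unadjusted p under 0.05), 4 with DESeq2 and 4 with the replicate block (WWTR1, TEAD1, TEAD2 and TEAD3), and 0 to 1 without 1 library (TEAD2, without DMSO replicate 1); with the same total it stayed 2, but as WWTR1 and TEAD2. Over all genes 688 passed, against 103 without the trend, 1613 with DESeq2 (22.5% of its calls in simulated data were false), 2397 with the replicate block and 84 to 990 without 1 library. The cause of these changes was not tested. Correlations of deviations between same-numbered libraries were 0.202, 0.159 and 0.059, not all over 0.1, so the libraries were not treated as paired; CA4 replicate 3 correlated best with DMSO replicate 2, and the other 5 libraries with their own number. Near 0 the sign moved: YAP1 was -0.063 with quantile normalization and -0.063 with the same total, LATS1 -0.016 and FBXW11 -0.0050 with the same total, and MOB1A -0.040, -0.015 and -0.084 with quantile normalization, the same 75th percentile and the same total. Without 1 library NF2 ran from -0.070 to 0.078, STK4 from -0.080 to 0.070 and MOB1A from -0.031 to 0.059. Of the 15 calls among genes named by the rule, 13 were lost without the variance trend, 2 held without each library in turn (ANKRD1 and GADD45A), and 13, 12, 9, 8, 5 and 3 lost it without DMSO replicate 2, DMSO replicate 3, CA4 replicate 3, CA4 replicate 1, CA4 replicate 2 and DMSO replicate 1. The YAP1 to WWTR1 ratio, the TEAD sum and the TEAD1 share were 0.57, 0.28 and 5.01 with and without pairing by number, since pairing 3 with 3 cannot move a mean difference; the paired exact sign-flip p was 0.25 for each, the smallest it can give.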
